A study of Mus musculus with 2 samples.

Results

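A set of 10 endothelial genes was followed in the RNA-seq data of primary mouse hepatocytes, out of 20317 genes whose mRNA could be given a symbol. They were a fixed set of names, looked up through the RefSeq identifiers of the deposited mRNA table, and all 10 were listed above 0 RPKM in both libraries. RPKM are reads scaled to transcript length and library size, so levels of different genes can be compared. Of the 10 genes, 5 are markers of liver sinusoidal endothelium (Stab1, Stab2, Lyve1, Clec4g and Oit3), 2 are used for endothelium of all vessels (Kdr and Pecam1), and 3 are grouped as capillary and large-vessel genes (Cd34, Vwf and Plvap), of which Plvap marks fenestrated rather than continuous capillaries.

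The data comprise 2 libraries, with 1 library per condition, both made from total RNA of primary hepatocytes of wild-type male C57BL/6J mice that were 5 weeks old at purchase. The oil library came from mice given intraperitoneal oil, and the CCl4 library from mice given a 20% CCl4 solution in mineral oil at 2.5 ml CCl4 per kilogram, 2 times per week. CCl4 is a solvent that injures hepatocytes when it is metabolized, and repeated dosing leads to liver fibrosis. The labels give 8 weeks of injection and the study's methods give 4. How many mice each library pools is not given in the sources used here. Hepatocytes were obtained by perfusion digestion and density gradient centrifugation, which enriches for hepatocytes without a sort for a marker, and the study's purity assay included no endothelial gene. Since no condition had a replicate, no difference between the libraries has a replicate check, and a gene was called higher or lower at a difference of 2-fold or more, which is 1 on the log2 scale in either direction, after 0.1 RPKM had been added to both values. Intervals are 95% exact Clopper-Pearson intervals from whole reads recovered from the RPKM values. They cover counting error only, without the variation between animals or preparations.

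The labelled cell type was checked against its defining genes. Alb stood at 8656 RPKM under oil and 6476 RPKM under CCl4, and all 12 hepatocyte genes of a fixed list were listed above 0 in both. Of these 12 genes, 7 were lower by at least 2-fold in the CCl4 library and none was higher, with a median log2 fold change of -1.17. The oil library was built on 57992580 reads and the CCl4 library on 64655538 reads, as recovered from the spacing of RPKM values in short transcripts. Across the 12012 genes listed above 0 in at least 1 library, the median log2 fold change was 0.32, so a typical gene was listed somewhat higher in the CCl4 library. Of these genes, 15.5% were higher and 5.25% lower by at least 2-fold (1859 and 631 genes), against 1068 and 1101 genes once both libraries were scaled to the median mRNA.

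Liver sinusoidal endothelial cells line the sinusoids with a perforated, filter-like sheet that lacks an organized basement membrane, and they clear waste molecules from blood through scavenger and lectin receptors. In chronic injury this endothelium can lose its pores and take on features of ordinary capillaries, a process called capillarization, in which markers of continuous vessels such as Cd34 and Vwf are gained and a basement membrane is laid down. Cd34 is a sialomucin of capillary endothelium that is also carried by blood progenitors and fibroblasts. Vwf encodes von Willebrand factor, which tethers platelets, and is stored in endothelium of larger vessels and in platelets. Plvap encodes the protein of the diaphragms that span endothelial pores and caveolae.

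Promoter sequences were at hand in the RefSeq promoter table of GRCm38.p6 for 5 of the 10 genes, as windows from 250 bases before to 50 bases after a transcript start. The windows of 4 genes are shown because they cover every class of the set: the paralogous sinusoidal receptors Stab1 (chr14:31168592-31168891, minus strand) and Stab2 (chr10:87007893-87008192, minus strand), the VEGF receptor gene Kdr (chr5:75978406-75978705, minus strand) and the capillary gene Cd34 (chr1:194938571-194938870, plus strand). Each is written 5′ to 3′ on the strand of the gene, with capitals marking the hexamers AGGAAG and CCGGAA or their reverse complements, both forms of the GGAA core bound by ETS factors, a family to which the endothelial regulator Erg belongs.
Stab1: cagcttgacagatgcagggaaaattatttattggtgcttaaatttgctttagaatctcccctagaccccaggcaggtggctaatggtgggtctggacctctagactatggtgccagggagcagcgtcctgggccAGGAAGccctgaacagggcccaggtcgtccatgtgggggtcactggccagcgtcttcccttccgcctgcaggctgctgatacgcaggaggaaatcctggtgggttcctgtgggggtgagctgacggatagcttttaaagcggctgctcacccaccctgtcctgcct
Stab2: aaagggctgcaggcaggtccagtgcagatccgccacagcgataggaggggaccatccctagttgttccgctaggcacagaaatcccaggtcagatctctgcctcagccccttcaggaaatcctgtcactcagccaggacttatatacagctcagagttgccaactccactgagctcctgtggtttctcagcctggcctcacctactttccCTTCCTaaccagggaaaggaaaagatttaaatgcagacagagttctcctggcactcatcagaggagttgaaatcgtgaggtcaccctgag
Kdr: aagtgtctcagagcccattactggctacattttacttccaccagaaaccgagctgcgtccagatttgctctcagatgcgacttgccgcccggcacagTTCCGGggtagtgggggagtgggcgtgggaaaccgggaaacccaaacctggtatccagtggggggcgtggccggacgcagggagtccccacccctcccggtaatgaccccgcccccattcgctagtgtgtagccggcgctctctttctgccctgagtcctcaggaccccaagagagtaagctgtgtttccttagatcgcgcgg
Cd34: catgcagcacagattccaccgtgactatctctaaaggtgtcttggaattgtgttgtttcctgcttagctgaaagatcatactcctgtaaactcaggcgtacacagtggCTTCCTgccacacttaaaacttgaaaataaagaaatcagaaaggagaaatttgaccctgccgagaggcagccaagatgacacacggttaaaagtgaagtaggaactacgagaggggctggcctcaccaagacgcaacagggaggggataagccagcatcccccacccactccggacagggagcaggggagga
On either strand, AGGAAG was present in the windows of Stab1, Stab2, Clec4g and Cd34, and in 35.4% of all 32851 promoter windows of the table. CCGGAA was present in the window of Kdr alone among the 5, and in 14.9% of all windows. The first base of the match lay 116 bases before the table's start in Stab1, 40 in Stab2, 142 in Cd34 and 153 in Kdr. That start is not always the 5′ end of the whole gene span given below, which covers every RefSeq transcript: it is the same base in Cd34 but lies 10 bases inside the span in Stab1, 96 in Stab2 and 617 in Kdr. The Kdr window therefore lies within the gene span, and the table does not name the transcript behind a start. AGATAA, a form of the site of GATA factors, was found in none of the 5 windows and in 11.2% of all, which says only that these letters are not in these windows. CACCC, a form of the site of KLF factors, was found in all 5 windows and in 57.5% of all. None of these matches was tested as a binding site.

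All 10 genes were higher in the CCl4 library than in the oil library, and 3 of them (Lyve1, Cd34 and Plvap) by at least 2-fold, that is 30% of the set beside 15.5% of all genes compared. None was lower by 2-fold, beside 5.25% of all genes. The median log2 fold change of the 10 genes was 0.76, beside 0.32 for all genes. The sinusoidal genes were higher by similar amounts, with log2 fold changes from 0.67 to 1.05, whereas the capillary and large-vessel genes lay from 0.43 to 2.38 and so held both the smallest and the largest difference of the set. In bulk RNA, more cells of a type and more RNA per cell cannot be told apart.

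**Figure D1:**
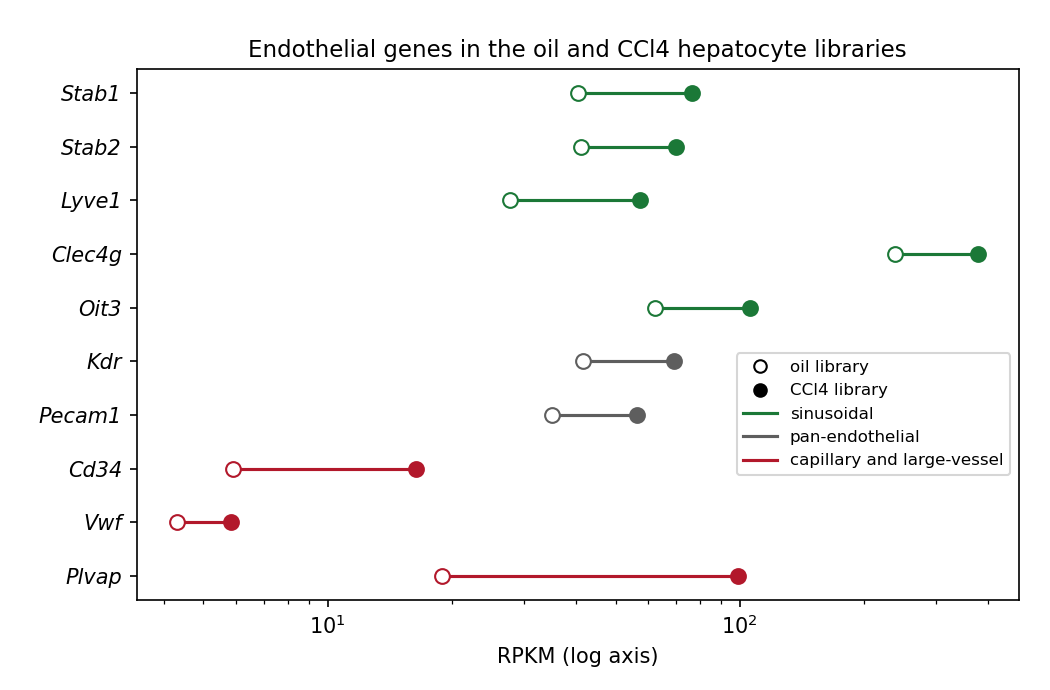
Levels of the 10 genes in RPKM on a log axis, with open circles for the oil library, filled circles for the CCl4 library and a line joining both values of a gene. Every filled circle lies to the right of its open circle, the longest line is that of Plvap (19.0 to 99.1 RPKM) and the shortest that of Vwf (4.30 to 5.82 RPKM).

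Among the sinusoidal genes, Clec4g, a C-type lectin also called LSECtin (chr8:3707066-3720695), was the most abundant. It was listed at 238 RPKM under oil and 379.8 RPKM under CCl4, from at least 14590 and 25956 reads. This is a log2 fold change of 0.67, the smallest of the 5, and counting error places the log2 ratio between 0.64 and 0.70. Oit3, a secreted and membrane protein of the zona pellucida domain family (chr10:59422960-59441779), stood at 62.3 RPKM under oil and 106.1 RPKM under CCl4, a log2 fold change of 0.77 with an interval from 0.72 to 0.82. Both genes thus kept their places as the most abundant and the next of the 10 in either library.

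Stab1 and Stab2 encode stabilin-1 and stabilin-2, large scavenger receptors that take up modified lipoproteins, matrix fragments and, for stabilin-2, hyaluronan. Stab1 (chr14:31139017-31168651) was at 40.5 RPKM under oil and 76.8 RPKM under CCl4, a log2 fold change of 0.92 with an interval from 0.89 to 0.96. Stab2 (chr10:86841194-87008038) was at 41.3 RPKM under oil and 70.0 RPKM under CCl4, a log2 fold change of 0.76 with an interval from 0.72 to 0.80. In the oil library the pair stood almost level, and in the CCl4 library Stab1 was the higher. The intervals of their log2 fold changes did not overlap, although both cover counting error alone. Stab1 is also expressed by macrophages, and the genes of that cell type are given below.

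Lyve1, a hyaluronan receptor shared by sinusoidal and lymphatic endothelium (chr7:110850607-110862953), showed the largest difference of the sinusoidal genes. It was at 27.7 RPKM under oil and 57.3 RPKM under CCl4, a log2 fold change of 1.05. The interval from 0.99 to 1.11 includes the 2-fold limit, and the log2 fold change was 0.75, below that limit, once both libraries were scaled to the median mRNA. Stab1 lay just under the limit and passed it (1.09) when the 10 most abundant mRNAs were left out of the library sum. Which of the sinusoidal genes passed the limit thus depended on the scaling.

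The log2 fold changes of the genes of endothelium in general lay within the range of the sinusoidal genes. Kdr, the main signalling receptor for VEGF (chr5:75932827-75979072), was at 41.8 RPKM under oil and 69.3 RPKM under CCl4, a log2 fold change of 0.73 with an interval from 0.69 to 0.77. Pecam1, the adhesion molecule CD31 (chr11:106654213-106715281), is listed as 2 transcripts. They stood at 35.1 and 34.7 RPKM under oil and at 56.4 and 55.8 RPKM under CCl4, with a log2 fold change of 0.68 for each. Both are transcripts of 1 gene, so they can share reads and are not independent. Together with the sinusoidal genes, 7 of the 10 genes lay within 0.37 of each other on the log2 scale.

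Plvap (chr8:71497753-71511806) stood apart. It was listed at 19.0 RPKM under oil and 99.1 RPKM under CCl4, from at least 1109 and 6456 reads, a 5.22-fold difference that counting error places between 4.90 and 5.57. The log2 fold change was 2.38, and 1.22% of all genes compared had a larger one, with genes listed at 0 in 1 library taken at their bound. By level, Plvap moved from the eighth place among the 10 genes to the third, and from rank 2132 to rank 414 among all genes compared.

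Cd34 (chr1:194938821-194961292) was scarcer than any sinusoidal gene in both libraries. Its more abundant transcript was at 5.90 RPKM under oil and 16.4 RPKM under CCl4, a log2 fold change of 1.46 with an interval from 1.36 to 1.59. The second listed transcript was at 5.64 and 15.7 RPKM, with a log2 fold change of 1.46 too. Vwf (chr6:125552948-125686679) was the least abundant of the 10 in both libraries, at 4.30 RPKM under oil and 5.82 RPKM under CCl4. Its log2 fold change of 0.43, with an interval from 0.36 to 0.51, was the smallest of the set and close to the 0.32 of all genes. The capillary and large-vessel genes thus differed among themselves, with 1.95 on the log2 scale between Plvap and Vwf.

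**Figure D2:**
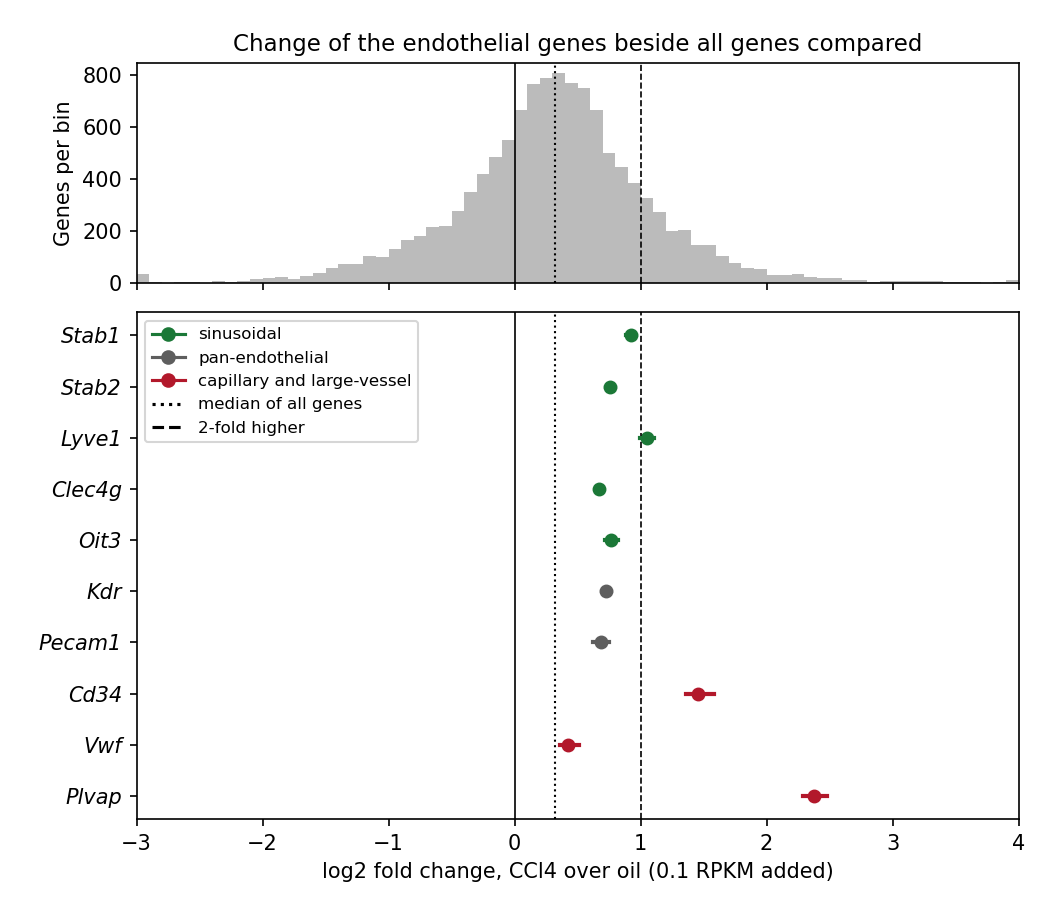
Log2 fold change of the CCl4 over the oil library, with 0.1 RPKM added, for all 12012 genes compared (upper panel, genes per bin, values beyond the axis gathered in the end bins) and for the 10 genes (lower panel, points, with bars for the 95% exact Clopper-Pearson interval of the read ratio without the added 0.1 RPKM). The sinusoidal and pan-endothelial genes form a column between 0.67 and 1.05, with Vwf at 0.43 below it and Cd34 at 1.46 and Plvap at 2.38 above it.

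Compared as classes, the sinusoidal genes had a median log2 fold change of 0.77 and the capillary and large-vessel genes 1.46, a difference of 0.69. With 5 and 3 genes and 1 library per condition this difference was not tested, and it rests on Cd34 and Plvap, since Vwf lay below every sinusoidal gene. The longer lists given below did not show it. Their medians were 0.84 for other sinusoidal genes and 0.79 for other capillary, arterial and venous genes. The summed level of the sinusoidal genes was 409.7 RPKM under oil and 690 RPKM under CCl4 (1.68-fold). The summed level of Cd34, Vwf and Plvap was 29.2 RPKM under oil and 121.2 RPKM under CCl4 (4.16-fold). Without Plvap that sum went from 10.2 to 22.2 RPKM (2.17-fold). Set against each other within a library, which removes the scaling between libraries, there were 7.12 RPKM of the capillary and large-vessel genes per 100 RPKM of the sinusoidal genes under oil and 17.6 RPKM under CCl4.

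The share of each gene in the summed RPKM of the 10 removes the scaling between libraries. The change of a share is the fold change of the gene divided by the 1.82-fold of the sum. The order of the genes is therefore the same by construction, and the shares are no separate evidence for it. Plvap made up 3.68% of the sum under oil and 10.6% under CCl4. Cd34 went from 1.14% to 1.75%, and Vwf from 0.834% to 0.621%. Clec4g, the largest part, went from 46.2% to 40.5%. The shares of Stab1 (7.85% and 8.19%), Stab2 (8.0% and 7.47%), Oit3 (12.1% and 11.3%) and Kdr (8.10% and 7.39%) were close in both libraries. Lyve1 went from 5.36% to 6.12% and Pecam1 from 6.80% to 6.02%. For every 100 RPKM of Stab2 there were 46.0 RPKM of Plvap under oil and 141.5 RPKM under CCl4. All 10 genes together took 0.123% of the summed mRNA RPKM under oil and 0.260% under CCl4.

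**Figure D3:**
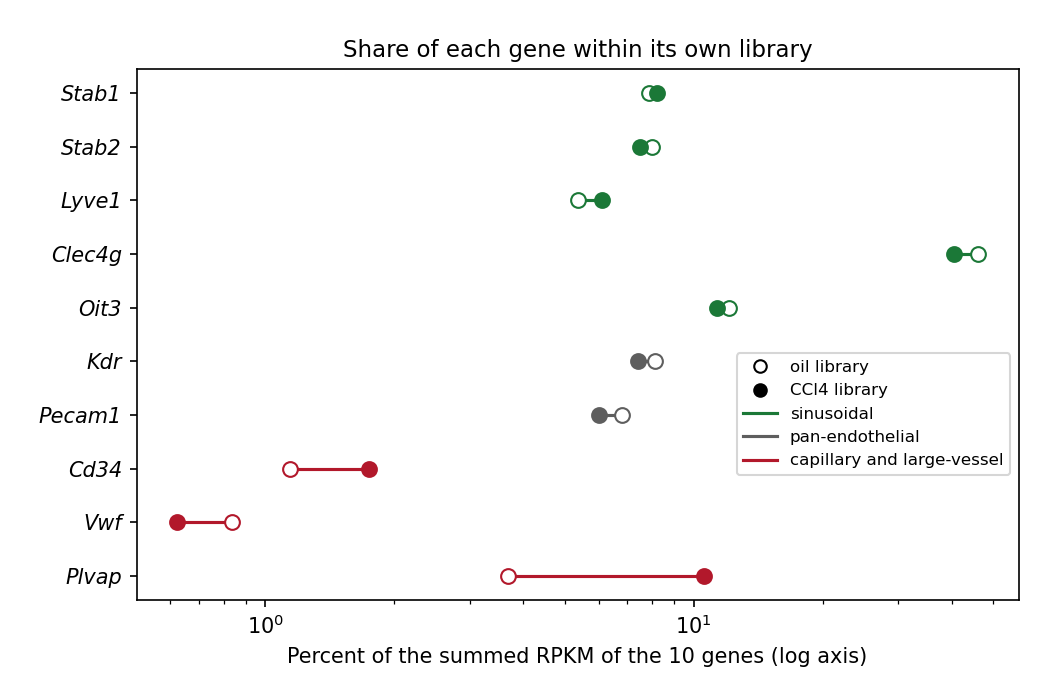
Share of each gene in the summed RPKM of the 10 genes within its own library, in percent on a log axis, with open circles for the oil library and filled circles for the CCl4 library. Plvap moves from 3.68% to 10.6% and Vwf moves to a smaller share. On the log axis, the sinusoidal and pan-endothelial genes move less than either.

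Further endothelial genes were counted over whole lists of named markers. Of 20 other sinusoidal genes, 19 were listed above 0 in at least 1 library. Of these, 5 were higher by 2-fold and none was lower, beside 15.5% and 5.25% of all genes. Their median log2 fold change was 0.84. Their values were near those of the 5 sinusoidal genes: 11 lay between 0.67 and 1.05, 3 above and 5 below. Ehd3, an endocytic protein, was at 80.2 RPKM under oil and 140.9 RPKM under CCl4, and Fcgr2b, the inhibitory receptor for IgG, at 75 and 154.4 RPKM. The largest difference was that of Cd36, a fatty acid and thrombospondin receptor that hepatocytes and macrophages carry too, at 19.7 and 70.6 RPKM (1.84 on the log2 scale). Gata4, a transcription factor of sinusoidal identity, was at 5.62 RPKM under oil and 17.2 RPKM under CCl4 (1.60). Which cells supplied the transcripts of Fcgr2b, Cd36 and Gata4 was not tested. Thbd, which encodes the anticoagulant thrombomodulin, was nearly level at 29.3 and 30.4 RPKM (0.050).

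Of 24 other genes of endothelium in general, 8 were higher by 2-fold and none was lower, beside 15.5% and 5.25% of all genes. Their median log2 fold change was 0.83. Clec14a, an endothelial lectin, was at 16.5 RPKM under oil and 53.6 RPKM under CCl4 (1.69), and Erg, an ETS transcription factor of endothelium, at 4.17 and 12.3 RPKM (1.54). Egfl7, a secreted endothelial protein, was at 54.5 and 116.4 RPKM (1.09). S1pr1, a receptor for sphingosine 1-phosphate, was at 18 RPKM under oil and 16.7 RPKM under CCl4 (-0.10), and Flt1, the decoy-like receptor for VEGF, at 8.05 and 9.40 RPKM (0.22). Sox7 was listed at 0 under oil and at 1.88 RPKM under CCl4.

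The 24 other genes of capillaries, arteries and veins gave a median of 0.79, close to that of the other endothelial lists. Of them, 21 were listed above 0 in at least 1 library, 7 were higher by 2-fold and 1 was lower. Aqp1, a water channel that bile duct cells carry too, was at 234.3 RPKM under oil and 406.4 RPKM under CCl4 (0.79). Esm1, a marker of sprouting tip cells, was at 2.04 and 6.85 RPKM (1.70), and Nr2f2, a transcription factor of veins, at 2.51 and 7.74 RPKM (1.59). From which cells the Nr2f2 transcripts came was not tested. Fabp4, a fatty acid binding protein of capillaries that macrophages carry too, was at 34.4 and 84.6 RPKM (1.30). The gene that was lower, Lrg1, at 377.5 and 103.8 RPKM (-1.86), is also an acute phase gene of hepatocytes. Ly6c1, a surface protein of capillaries and monocytes, was at 2.3 and 1.38 RPKM (-0.69). Gja4, a connexin of arteries, was at 29.1 and 28.5 RPKM (-0.03), and the activation and vasoconstrictor genes Selp and Edn1 were at 1.36 and 1.27 RPKM under oil and at 1.43 and 1.45 RPKM under CCl4 (0.07 and 0.18). Among the 62 genes of these lists of other sinusoidal, pan-endothelial and capillary, arterial and venous genes that were above 0 in both libraries, none had a larger log2 fold change than Plvap and the largest was 1.84. Cd34 was exceeded by 8 of the 62, and 10 lay below Vwf. Sox7 and Rgcc, listed at 0 under oil and at 1.88 and 1.15 RPKM under CCl4, have lower bounds alone (0.84 and 0.19) and could not be placed. Of all 64 genes measured, 31.3% were higher and 1.56% lower by 2-fold, beside 15.5% and 5.25% of all genes.

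Of 8 VEGF and angiopoietin ligands, 5 were listed above 0 in at least 1 library, 2 were higher by 2-fold, of which Angpt2 is a bound, and none was lower, beside 15.5% and 5.25% of all genes. Their median log2 fold change was 0.95, or 0.39 over the ligands above 0 in both libraries. Vegfa, the main ligand of Kdr and a product of hepatocytes, was at 16.5 RPKM under oil and 8.23 RPKM under CCl4 (-0.99). It missed the 2-fold limit only through the added 0.1 RPKM, since its plain ratio was 0.4995. Vegfc, a ligand of Flt4 and Kdr, was at 1.82 and 6.19 RPKM (1.71). Vegfb, a ligand of Flt1, was at 1.53 and 3.05 RPKM (0.95). Angpt2, the angiopoietin released by activated endothelium, was listed at 0 under oil and at 2.28 RPKM under CCl4. Angptl4, an angiopoietin-like inhibitor of lipoprotein lipase, was at 35.2 and 31.1 RPKM (-0.18). Vegfd, Pgf and Angpt1 were listed at 0 in both libraries.

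Of 18 regulators of shear response, Notch and BMP signalling in endothelium, 10 were higher by 2-fold and none was lower, beside 15.5% and 5.25% of all genes, with a median of 1.14 (0.84 after scaling to the median mRNA). Klf2, induced by flow, was at 18.5 RPKM under oil and 26.1 RPKM under CCl4 (0.49), and Nos3, the endothelial nitric oxide synthase, at 5.04 and 7.49 RPKM (0.56). Id3, a target of BMP signalling, was at 71.6 and 221 RPKM (1.62). Among genes above 0 in both libraries, the largest differences were those of Gdf2, which encodes BMP9 and is made by stellate cells in liver, at 4.78 and 46.0 RPKM (3.24), and of the endothelin receptor gene Ednrb, at 5.33 and 32 RPKM (2.56). Bmp10, a circulating ligand of the same receptor as BMP9, and Hey1, a target of Notch, were listed at 0 under oil and at 6.37 and 4.97 RPKM under CCl4, which gives lower bounds of 2.56 and 2.21. Stellate cells also express Ednrb, and which cells supplied the transcripts of Gdf2 and Ednrb was not tested.

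Of 9 basement membrane genes, 8 were higher by 2-fold and none was lower, beside 15.5% and 5.25% of all genes, with a median of 2.01, and their range from 0.83 to 3.58 overlapped that of the endothelial genes. Col4a1 and Col4a2, the chains of the main basement membrane collagen, were at 22.1 and 13.3 RPKM under oil and at 89.1 and 57.2 RPKM under CCl4 (2.01 and 2.10). The laminin chain gene Lamb1 was at 1.13 and 14.7 RPKM (3.58), whereas Lama4, the laminin chain of vessel walls, was at 4.16 and 7.50 RPKM (0.83). Stellate cells and fibroblasts make most of these components too, and which cells supplied them was not tested.

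Among genes of other cells in the preparation, most measured stellate cell, fibroblast and macrophage genes were higher by 2-fold too. Their counts stand beside 15.5% higher and 5.25% lower among all genes. Of 15 stellate cell and fibroblast genes, 14 were listed above 0 in at least 1 library, 12 were higher by 2-fold and none was lower. Their summed level was 85.4 RPKM under oil and 984 RPKM under CCl4, with a median log2 fold change of 3.38, and Pdgfrb was listed at 0 in the oil library. Col1a1, a chain of fibrillar collagen, was at 3.02 and 130.5 RPKM (5.39), and the matrix proteoglycan genes Lum and Dcn at 2.13 and 54.5 RPKM (4.62) and at 36.1 and 213.9 RPKM (2.56). Dpt and Pdgfra, which fibroblasts that carry Cd34 can express, were at 3.52 and 1.28 RPKM under oil and at 30.4 and 13.9 RPKM under CCl4 (3.07 and 3.35). The smallest differences of the list were those of Thy1 and Pi16, which mark portal and adventitial fibroblasts that can carry Cd34, at 2.51 and 1.77 RPKM under oil and at 2.75 and 2.93 RPKM under CCl4 (0.13 and 0.70). Of 12 Kupffer cell and macrophage genes, 7 were higher by 2-fold and none was lower, with a summed level of 1512 RPKM under oil and 3178 RPKM under CCl4 and a median of 1.12 (0.81 after scaling to the median mRNA). Among them, Marco was at 42.3 and 277.9 RPKM (2.71) and Clec4f at 282.6 and 254.5 RPKM (-0.15). The part of macrophages in the values of Stab1 and of fibroblasts in those of Cd34 was not tested.

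Platelet genes, which bear on Vwf and Pecam1, were scarce. Of 10, 5 were listed at 0 in both libraries, among them Gp1ba, Gp1bb and Gp5 of the von Willebrand factor receptor complex. The other 5 summed to 12.9 RPKM under oil and 33.9 RPKM under CCl4, with a median of 0.98. Of these 5, 2 were higher by 2-fold and none was lower, beside 15.5% and 5.25% of all genes. Pf4 was at 4.46 and 16.8 RPKM (1.89) and Itga2b at 1.37 and 3.51 RPKM (1.29). Gp9, a further gene of the von Willebrand factor receptor complex, was at 1.21 and 2.29 RPKM (0.86). Of 6 lymphatic endothelial genes, which bear on Lyve1, Ccl21a was listed at 0 in both libraries and Mmrn1 at 0 under oil and at 1.18 RPKM under CCl4. Pdpn was at 3.47 and 5.23 RPKM (0.58) and Nrp2 at 7.44 and 14.0 RPKM (0.90). Prox1, which hepatocytes express too, was at 7.33 and 5.24 RPKM (-0.48). The sum of the list was 22.3 RPKM under oil and 69.1 RPKM under CCl4. Most of that difference lay in Reln (4.01 and 43.4 RPKM), a gene also counted among the stellate genes. Of 7 mesothelial genes, 3 were higher by 2-fold, of which Wt1 is a bound from a value listed at 0 under oil, and none was lower, beside the same shares of all genes, with summed levels of 45.7 and 80.1 RPKM and a median of 0.94. The part of platelets, lymphatic vessels and mesothelium in the endothelial values was not tested.

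**Figure D4:**
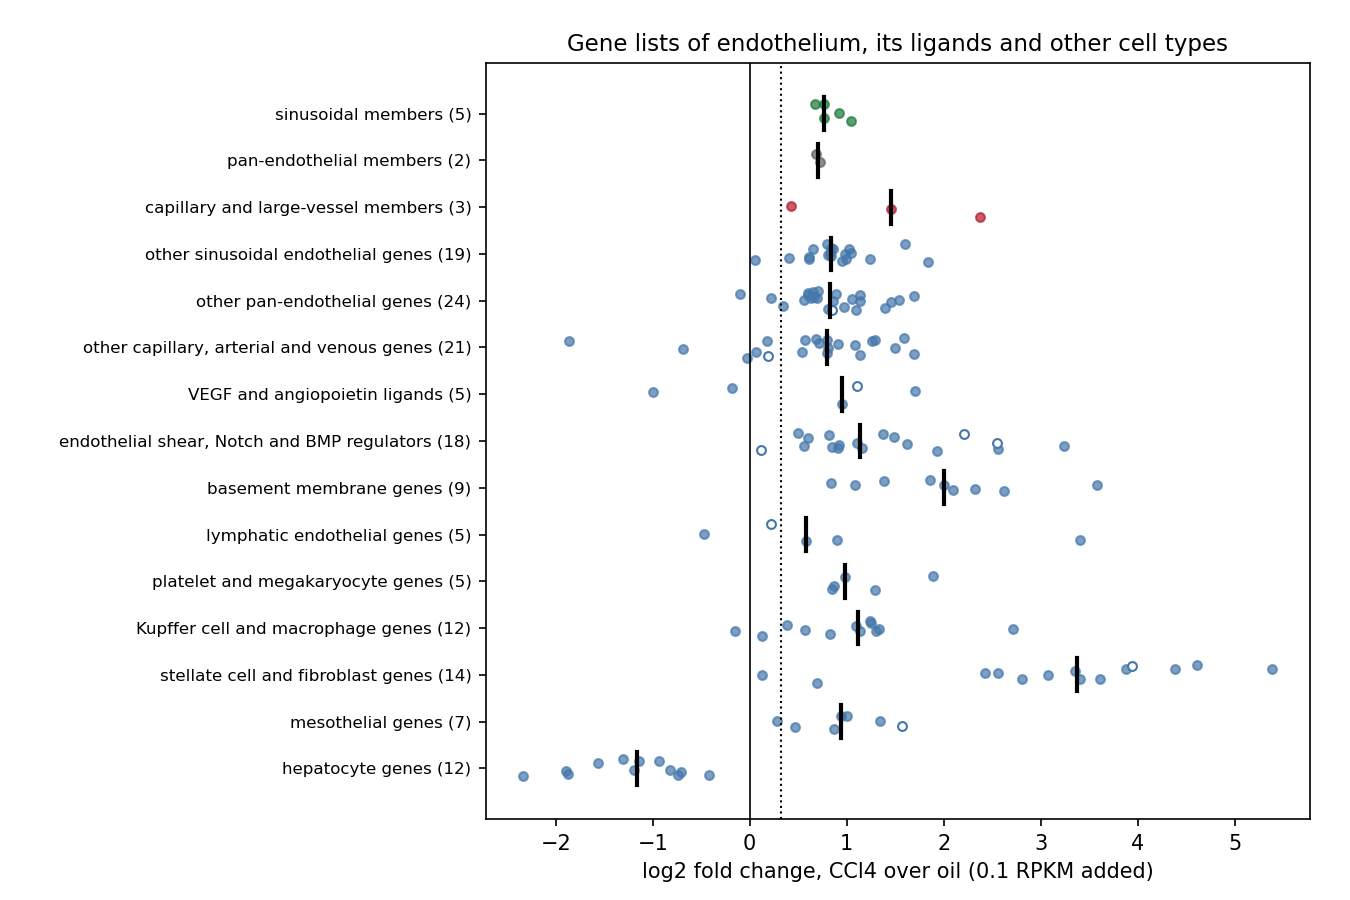
Log2 fold change of the CCl4 over the oil library, with 0.1 RPKM added, for each gene of the lists (points, with the number of measured genes after each name). Open points are genes listed at 0 in 1 library and drawn at their bound, black bars are medians, the solid line marks 0 and the dotted line the median of all genes (0.32). The lists of endothelial markers have medians from 0.71 to 0.84 apart from Cd34, Vwf and Plvap at 1.46 and the lymphatic genes at 0.58. The lymphatic median was between 0.28 and 0.96 under the processing alternatives given below. Basement membrane genes lie at 2.01, stellate cell and fibroblast genes at 3.38 and hepatocyte genes at -1.17.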

How the data were processed

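Total RNA of isolated hepatocytes was sequenced on the Illumina platform, with 1 oil and 1 CCl4 library. Per the labels, the submitters' processing notes name CASAVA 1.4, TopHat2 and the build mm10. The read counter, annotation version and strand setting are not given in the sources used here. The authors deposited RPKM values for 27457 mRNA transcripts and for annotated lncRNAs, in which every value under 1 RPKM is listed as 0 (the smallest above 0 is 1.00 RPKM). Their tables also hold the authors' own log2 fold changes, p-values and q-values, which were not used. For new lncRNAs the authors deposited whole-number read counts with lengths and RPKM, which served only to check the recovery of reads.

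Symbols came from matching transcript identifiers to RefSeq genes on GRCm38.p6 (27049 of 27457 matched). A gene was represented by its transcript of highest mean RPKM. The 8305 genes without a listed value in either library were not compared. Where 1 library was listed at 0, the cutoff of 1 RPKM took its place, so that the fold change is a bound. Fold changes are log2 of CCl4 over oil on a scale with 0.1 RPKM added, so changes of scarce genes are understated. Calls were made on the fold alone, since no test across conditions is possible with 1 library each. The members and gene lists were chosen with earlier results of these data known. Of each list, the genes to be named were the 3 of highest mean RPKM, or fewer. To these came the 2 most positive and the 2 most negative log2 fold changes, or fewer, among genes above 0 in both libraries. All measured VEGF and angiopoietin ligands were to be named too. Pdgfrb, Mmrn1, Sox7, Rgcc, Bmp10, Hey1 and Wt1, all listed at 0 in the oil library, and Dpt, Pdgfra, Gja4, Selp and Edn1 were named after their values were seen.

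Library totals were searched as the number of reads that gave whole reads for genes under 400 bases (213 of 222 for oil, 226 of 237 for CCl4). Reads of a transcript were taken at the smallest length, of those between 50 and 30000 bases, at which both libraries had whole numbers of reads. They are lower bounds, which widens the intervals. On 1397 new lncRNAs with known counts, 82.1% of the recovered reads were equal to the deposited counts and none was above. Calls and recovery were tested on simulated data. Scripts ran under Python 3.11.15 with pandas 2.3.3, matplotlib 3.10.9, scipy 1.17.1 and numpy 2.4.6.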

Additional observations from a re-analysis of the deposited data

How the results depend on the processing

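No direction of the 10 endothelial genes, of a list median or of the class difference turned under the alternatives, 207 values in all, of which 134 stayed within counting error of the value reported (for medians, the widest error of any of the 10 genes) or, for counts of genes, within 1.5-fold, and 73 moved. The alternatives were another pseudocount, another treatment of listed zeros, another scaling, transcripts summed per gene, genes above 0 in both libraries only, and other call limits. Scaling both libraries to the median mRNA, a shift of 0.30 on the log2 scale, gave medians of 0.47 for the sinusoidal and 1.16 for the capillary and large-vessel genes, with 1068 genes higher and 1101 lower against 1859 and 631. The split of calls thus went from mostly higher to nearly even. Leaving the 10 most abundant mRNAs out of the library sum gave medians of 0.93 and 1.62. With a pseudocount of 1 RPKM the capillary and large-vessel median was 1.33 and the class difference 0.57, with 1224 genes higher. The class difference was between 0.57 and 0.70 under all alternatives. Scaling shifts all genes by nearly the same log2 amount, so it nearly cancels in this difference. The treatment of listed zeros and the limit to genes above 0 in both libraries cannot change it, since all 10 genes were above 0 in both. Values of the 10 genes under those alternatives stayed by construction and are counted among the 134. A call at 0.58 gave 3993 higher and 1369 lower genes and a call at 2 gave 261 and 94, as a looser or stricter limit does by construction. Plvap lay between 2.08 and 2.54, Cd34 between 1.16 and 1.62 and Vwf between 0.13 and 0.59. No paired analysis was possible because each condition has 1 library and the labels give no replicate numbers. Depth does not limit these genes, each with at least 843 recovered reads per library, whereas the lack of replicates limits every comparison.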
